A study of Mus musculus with 18 samples.

Results

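The mitochondrial genome of the mouse carries 37 genes, and all 37 had a row in the deposited count table of 55450 genes. They were picked by name alone, as the rows whose symbol begins with mt-, and fell into 13 protein-coding mRNAs, 2 ribosomal RNAs and 22 transfer RNAs. Each was compared between cells given sildenafil citrate, an inhibitor of the cGMP-degrading phosphodiesterase PDE5, and cells given only the solvent DMSO. The cells were 3 wild-type (labelled W.T) mouse cancer lines in culture: 4T1 breast carcinoma, grown in RPMI 1640 medium, and the colon adenocarcinoma MC38 and the Lewis lung carcinoma LLC, both grown in DMEM. Sildenafil was given at 100 µM for 24 hours in 4T1 and MC38 and for 48 hours in LLC. Each of the 6 groups had 3 libraries. No label says that these came from separate cultures, and the p-values below reflect only how far these libraries scatter, which may be technical.

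Mitochondrial DNA is transcribed from both strands as long polycistronic RNAs by the single-subunit polymerase POLRMT. Transfer RNAs lie between most of the other genes, and their excision by RNase P and ELAC2 releases the mRNAs and rRNAs. All mRNAs but mt-Nd6 come from the heavy-strand promoter; they encode core subunits of respiratory complexes I, III, IV and V, while mt-Rnr1 and mt-Rnr2 are the small and large rRNAs of the mitochondrial ribosome. Most mitochondrial mRNAs receive a short poly(A) tail from MTPAP, and the LRPPRC-SLIRP complex protects them from decay.

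By the labels' protocols, the libraries were prepared from oligo-dT captured RNA with a strand-marking kit. They held 26348659 to 61600675 counts. Mitochondrial mRNAs took between 0.449% and 1.09% of these. The tRNAs were outside the reach of the data: 21 of the 22 rows, each 59 to 75 bases long, had no count in any library, and mt-Tm (methionine tRNA) had 1 count in LLC control library 3 and 1 each in LLC sildenafil libraries 1 and 3. A count of 0 allows up to 0.0487 to 0.114 CPM (counts-per-million), depending on the library, which covers counting error only. The 15 mRNA and rRNA rows passed the filter on low counts in every line. RNAs that normally lack a poly(A) tail, together with rRNA-like rows (11 rows such as Rn7sk and Rn7s2), summed to 1099 to 1322 CPM in 4T1 controls, against 88305 to 102098 in MC38 controls and 76022 to 92483 in LLC controls. Rn7s2 alone averaged 6.04 CPM in 4T1 controls, 46979 in MC38 controls and 29409.5 in LLC controls. The libraries of the 3 lines may thus not be equally selected for tails, which was not tested. Of 8 epithelial markers, all 8 passed the filter in 4T1 and 5 in MC38, while in LLC only Krt8 did and 5, among them Epcam, had no count. The leukocyte marker Ptprc did not exceed 0.128 CPM in any library. Summed over 8 leukocyte markers, 4T1 controls held 9.84 to 10.5 CPM and 4T1 sildenafil libraries 39.1 to 41.1, with Cd68, a lysosomal membrane protein, the one of them tested there. The same sums were 5.62 to 6.06 and 9.27 to 10.1 CPM in MC38, where Csf1r and Cd68 rose, and 2.66 to 3.17 and 4.69 to 5.66 CPM in LLC, where Lyz2 rose. The epithelial markers summed to 2873 to 2941 CPM in 4T1 controls and 2440.3 to 2486 in sildenafil libraries, to 2479 to 2511 and 2027 to 2187 in MC38, and to 206 to 228 and 183 to 190.4 in LLC. Fibroblast markers summed to 26.9 to 29.8 and 54.0 to 64.1 in 4T1, 577 to 597 and 577 to 578 in MC38, and 67.6 to 77.1 and 145 to 158 in LLC. The part of these markers in the results below was not tested.

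The ends of 3 mRNAs show why tails matter for this genome. They are printed here because the labels' protocols name selection on tails. The mRNAs of mt-Co3, mt-Nd4 and mt-Cytb stop after a lone T, which becomes a full stop codon once A residues are added; the other 10 end in a complete stop, as mt-Co1 does. The last 30 bases of each gene (GENCODE M21 transcripts, GRCm38, plus strand of chromosome M) are given 5′ to 3′ with the lone T or the stop codon in capitals. They lie at chrM:9361-9390, chrM:11515-11544, chrM:15259-15288 and chrM:6843-6872.
mt-Co3: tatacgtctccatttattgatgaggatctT
mt-Nd4: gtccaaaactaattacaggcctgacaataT
mt-Cytb: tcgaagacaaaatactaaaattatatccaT
mt-Co1: gaggaaccaacctatgtaaaagtaaaaTAA

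A stretch of mitochondrial DNA inserted in chromosome 1 bears on 7 of the 13 mRNAs. Between 24611535 and 24616197 on the minus strand of chromosome 1 (GRCm38), GENCODE M21 annotates 7 unprocessed pseudogenes that copy mt-Co1, mt-Co2, mt-Atp6, mt-Co3, mt-Nd3, mt-Nd4l and mt-Nd4. The copies of mt-Co2 (Gm28661, 681 bases), mt-Atp6 (Gm10925, 678), mt-Co3 (Gm28437, 783), mt-Nd4l (Gm10222, 294) and mt-Nd4 (Gm28439, 876) were identical to the mitochondrial gene at every base. The copy of mt-Nd3 (Gm28438) differed by 1 substitution in 345 bases, T3C, and that of mt-Co1 (Gm29216) by 6 in 492 bases, namely T1056A, C1057T, A1059G, A1060G, C1062A and A1066T. Positions count from the first base of the mitochondrial gene, whose base comes first. The windows around these differences follow, with differing bases in capitals, beside the identical start of mt-Atp6 and its copy. A read from such identical stretches can belong to either place, and RSEM divides it between them by estimate.
mt-Nd3 (chrM:9459-9491, plus): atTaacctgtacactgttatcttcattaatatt
Gm28438 (chr1:24613087-24613119, minus): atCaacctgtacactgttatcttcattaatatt
mt-Co1 (chrM:6381-6413, plus): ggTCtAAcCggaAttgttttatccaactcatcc
Gm29216 (chr1:24616165-24616197, minus): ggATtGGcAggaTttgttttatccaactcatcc
mt-Atp6 (chrM:7927-7987, plus): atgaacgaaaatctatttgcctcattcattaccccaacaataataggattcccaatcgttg
Gm10925 (chr1:24614591-24614651, minus): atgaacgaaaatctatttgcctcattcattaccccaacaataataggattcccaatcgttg

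The nuclear copies were given much of the joint count. For mt-Atp6 the copy held a median of 84.8% of the joint count in 4T1, 82.6% in MC38 and 81.9% in LLC. For mt-Co2 it held between 69.6% and 82.9% in 4T1 libraries, between 93.9% and 96.7% in MC38 libraries and between 94.2% and 96.8% in LLC libraries. The medians were, for mt-Co3 71.7%, 88.4% and 84.8%, for mt-Nd3 26.6%, 82.3% and 83.4%, and for mt-Nd4l 34.2%, 75.9% and 79.4%. In MC38 sildenafil library 3 and LLC sildenafil library 3 the whole joint count of mt-Nd4l went to the copy, and mt-Nd4l is listed at 0 there. The copy of mt-Co1, shorter than the gene, took 7.35% to 9.03% (medians), and that of mt-Nd4 at most 1.46% in any library. The division therefore differed between lines for genes whose sequence is the same, so results for mt-Atp6, mt-Co2, mt-Co3 and mt-Nd3 are also given as the sum of gene and copy where they differ. The mRNAs mt-Nd1, mt-Nd2, mt-Atp8, mt-Nd5, mt-Nd6 and mt-Cytb have no annotated copy in this cluster.

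**Figure D1:**
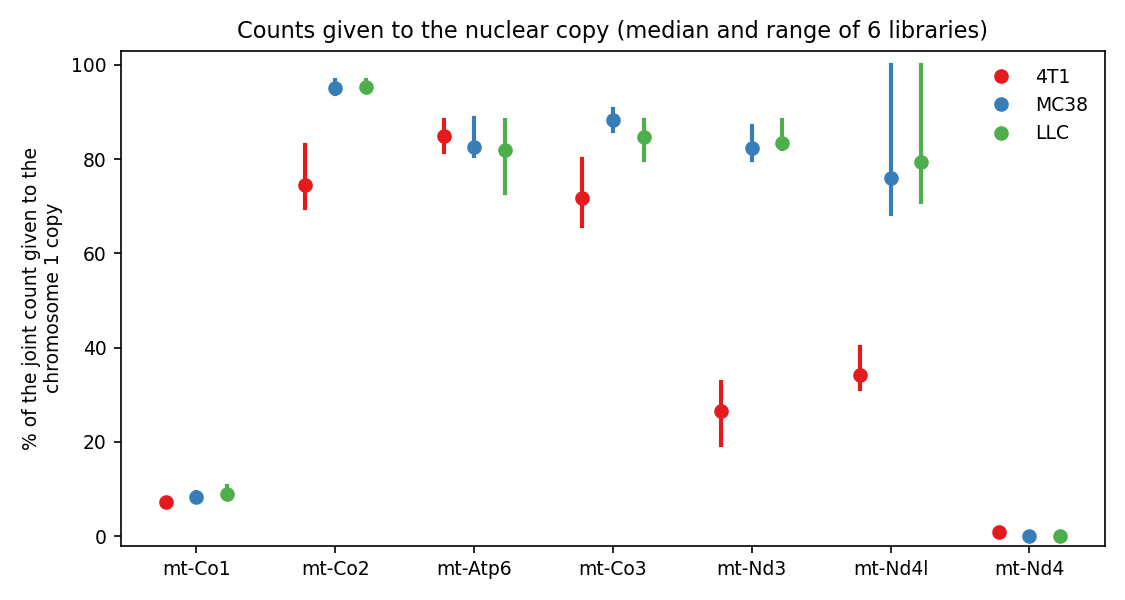
Percentage of the joint count of each mitochondrial mRNA and its chromosome 1 copy that the deposited table gives to the copy; points are medians and bars the full range of the 6 libraries of a line. The copies of mt-Co2, mt-Atp6 and mt-Co3 hold most of the joint count in each line, and mt-Nd3 and mt-Nd4l differ between 4T1 and the other lines.

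Per length and with the copies added, the 3 mRNAs of cytochrome c oxidase (complex IV) were the most abundant mitochondrial mRNAs in MC38 and LLC controls, and those of ATP synthase (complex V) came before them in 4T1. As deposited, CPM divided by gene length in kilobases in 4T1 controls were highest for mt-Atp8 (1529.8 ± 160.1, mean ± SD, n = 3), followed by mt-Co1 (997 ± 212), mt-Nd1 (758 ± 144) and mt-Cytb (646 ± 125), and lowest for mt-Nd6 (1.42 ± 0.175). In MC38 and LLC mt-Co1 came first, at 2003 ± 32.8 and 4847 ± 349. With the copies added, the order in 4T1 was mt-Atp6 (2403 ± 283), mt-Atp8, mt-Co2 (1391 ± 295), mt-Co3 (1308 ± 128) and mt-Co1 (1073 ± 228), of which the last 4 lay within each other's spread from one to the next. In MC38 it was mt-Co3 (2968 ± 90.1), mt-Co1 (2176 ± 41.5), mt-Co2 (1922 ± 61.8) and mt-Nd3 (791 ± 72.6), each apart by more than the SDs, and in LLC mt-Co1 (5368 ± 341), mt-Co3 (4121 ± 409.6), mt-Co2 (2783 ± 233) and mt-Atp6 (1221 ± 212). The mRNA of complex I subunit mt-Nd5 was lower per length, at 178 ± 30.4 in 4T1, 50.1 ± 4.37 in MC38 and 101 ± 37.1 in LLC.

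Among the 15 mRNA and rRNA rows, mt-Rnr2 differed by the largest fold between control cells of 4T1 and of either other line. On values scaled over all 18 libraries, mt-Rnr2 averaged 56.1 ± 8.52 CPM in 4T1, 2445 ± 152 in MC38 and 4149 ± 1834 in LLC, 43.6-fold and 74.0-fold higher than in 4T1. The light-strand mRNA mt-Nd6 averaged 0.724 CPM in 4T1, 9.40 in MC38 and 14.7 in LLC, and mt-Co1, which encodes the largest complex IV subunit, 1509, 3269.5 and 7395, whereas mt-Nd4 was 5.10-fold lower in MC38 and 2.34-fold lower in LLC. The deposited row of mt-Nd4l was 22.2-fold lower in MC38 and 18.2-fold lower in LLC than in 4T1, and its joint count with the copy is divided differently in these lines. Between LLC and MC38 the largest fold was that of mt-Co1, 2.26-fold higher in LLC. Of the 15 rows, 13 did not overlap between MC38 and 4T1 controls, 13 between LLC and 4T1, and 9 between LLC and MC38; over all genes tested, 86.6%, 86.9% and 76.6% did not overlap. Line, culture medium and the amount of RNA without a tail cannot be told apart in these contrasts between 4T1 and the other lines.

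**Figure D2:**
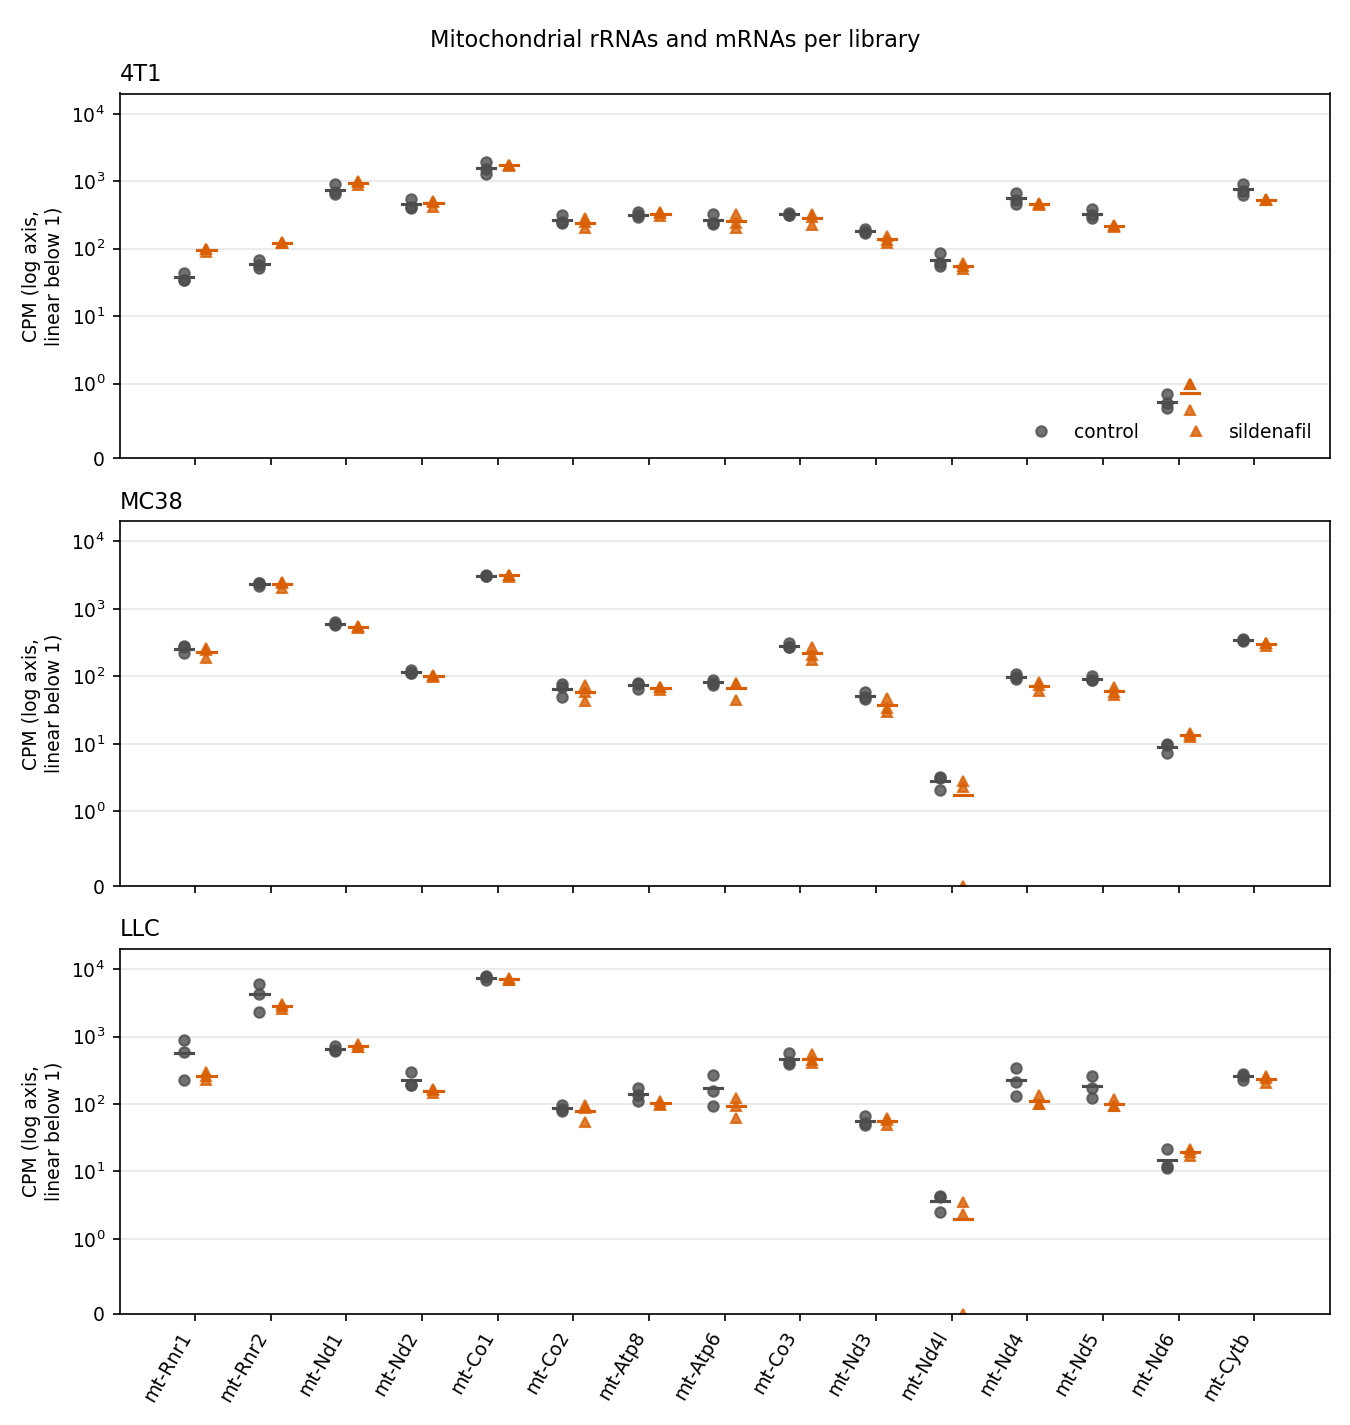
CPM of the 2 mitochondrial rRNAs and 13 mRNAs in each library (circles control, triangles sildenafil, horizontal bars group means), scaled within each line, on an axis that is logarithmic above 1 and linear below. In 4T1 the sildenafil libraries lie above the controls for mt-Rnr1 and mt-Rnr2 and below them for mt-Nd3, mt-Nd5 and mt-Cytb; mt-Nd4l sits at 0 in 1 MC38 and 1 LLC sildenafil library.

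In 4T1, sildenafil was accompanied by higher rRNAs and by 3 mRNAs called lower, a smaller share than among all genes. Of the 13 mRNAs, 3 passed the test, against 66.7% of all genes tested in 4T1: 3 fell (mt-Nd3, mt-Nd5 and mt-Cytb) and 0 rose in edgeR's quasi-likelihood test at an adjusted p under 0.05. Of all genes tested in 4T1, 33.3% fell and 33.5% rose by the same rule. The number called lower was 1 without sildenafil library 1 and 0 without sildenafil library 2 or 3. The groups did not overlap for mt-Nd3, mt-Nd5 and mt-Cytb, against 71.0% of all genes. No mRNA with a higher estimate had an unadjusted p under 0.05, while DESeq2 and limma-voom each called 1 higher, mt-Nd1. The median log2 fold change of the 13 was -0.13, beside 0.0023 over all genes tested. A lower value in bulk RNA may reflect fewer cells of a kind or less RNA per cell, which cannot be told apart here.

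Complex I subunits are encoded by 7 of the mRNAs, and they did not move as a block in 4T1. mt-Nd5 stood at 392, 320.4 and 284 CPM in the control libraries and 212, 223 and 219 CPM in the sildenafil libraries (CPM here and below are scaled by TMM within the line). The groups did not overlap, and mt-Nd5, a proton-pumping membrane subunit, fell with a log2 fold change of -0.61 (SE 0.13, adjusted p = 0.0121). mt-Nd3 stood at 196, 174 and 175 CPM in the control libraries and 154, 135 and 123 CPM in the sildenafil libraries. The control libraries were all higher, with a log2 fold change of -0.40 (SE 0.094, adjusted p = 0.00985); with the nuclear copies added it was a log2 fold change of -0.30 (SE 0.038, adjusted p = 8.53e-06). mt-Nd1 stood at 898, 682 and 647 CPM in the control libraries and 986, 1012 and 872 CPM in the sildenafil libraries. Control library 1 overlapped the sildenafil libraries and mt-Nd1, the subunit at the quinone-binding site, was not called, with a log2 fold change of 0.37 (SE 0.16, adjusted p = 0.103); without that library the log2 fold change was 0.52 (adjusted p = 2.96e-05). mt-Nd2, mt-Nd4l, mt-Nd4 and mt-Nd6 had log2 fold changes of 0.066, -0.30, -0.26 and 0.20 and were not called, although mt-Nd4 was at -0.38 (adjusted p = 0.00887) without control library 3. The calls of mt-Nd3 and mt-Nd5 rested on small margins: the adjusted p of mt-Nd3 was 0.0504 and 0.0636 without sildenafil library 2 or 3, and that of mt-Nd5 0.0504 to 0.0584 without any 1 of the sildenafil libraries.

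The remaining 4T1 mRNAs belong to complexes III, IV and V. mt-Cytb stood at 913, 725 and 634 CPM in the control libraries and 524, 538 and 536 CPM in the sildenafil libraries. Every sildenafil library was below every control, and mt-Cytb, the only complex III subunit encoded in mitochondria, fell with a log2 fold change of -0.51 (SE 0.15, adjusted p = 0.0364). That call was lost without control library 2 (adjusted p = 0.0644) or any 1 sildenafil library (0.108 to 0.114). mt-Co1 stood at 1934, 1505 and 1291 CPM in the control libraries and 1703, 1745 and 1729 CPM in the sildenafil libraries. Control library 1 was the highest and control library 3 the lowest of the 6, and mt-Co1, the catalytic subunit of complex IV, had a log2 fold change of 0.13 (SE 0.16, adjusted p = 0.532), or 0.30 (adjusted p = 0.000789) without control library 1. The 2 other complex IV mRNAs, mt-Co2 and mt-Co3, and the ATP synthase mRNAs mt-Atp8 and mt-Atp6 had overlapping groups and log2 fold changes of -0.13, -0.18, 0.056 and -0.053. With the copies added, mt-Co2, mt-Co3 and mt-Atp6 were at 0.21, 0.087 and 0.089, so the sign of these estimates depended on the division between gene and copy; none was called either way.

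In MC38, 5 of 13 mRNAs were called, against 37.8% of all genes tested: 4 fell and 1 rose, against 18.3% of all genes tested falling and 19.5% rising. Their median log2 fold change was -0.21, beside 0.0040 over all genes. mt-Nd5 stood at 87.8, 87.8 and 101 CPM in the control libraries and 52.2, 58.6 and 70.0 CPM in the sildenafil libraries. The highest sildenafil library stayed below the lowest control, with a log2 fold change of -0.61 (SE 0.13, adjusted p = 0.0259); the adjusted p was 0.0604 to 0.0888 without any 1 control library or sildenafil library 2. mt-Nd1 stood at 632, 585 and 589 CPM in the control libraries and 521, 544 and 559.9 CPM in the sildenafil libraries. mt-Nd2 stood at 124, 114 and 111 CPM in the control libraries and 96.7, 101 and 106 CPM in the sildenafil libraries. In both, the groups did not overlap and the spread was small, with a log2 fold change of -0.15 (SE 0.036, adjusted p = 0.00338) for mt-Nd1 and a log2 fold change of -0.20 (SE 0.044, adjusted p = 0.00352) for mt-Nd2. mt-Nd4 stood at 99.0, 90.2 and 109 CPM in the control libraries and 60.1, 73.4 and 82.4 CPM in the sildenafil libraries. These groups did not overlap either, but mt-Nd4 was not called, with a log2 fold change of -0.46 (SE 0.15, adjusted p = 0.0763). 

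The mRNA that rose in MC38 was mt-Nd6, a complex I subunit and the only mRNA read from the other strand. mt-Nd6 stood at 9.66, 10.0 and 7.23 CPM in the control libraries and 12.8, 13.7 and 14.6 CPM in the sildenafil libraries. All sildenafil libraries exceeded all controls, with a log2 fold change of 0.61 (SE 0.11, adjusted p = 0.00136), and the call held without any 1 library. Gm26917, a long noncoding RNA row of the list of RNAs without a poly(A) tail and rRNA-like rows, fell in MC38, at 8954, 10498 and 14105 CPM in the control libraries and 4822, 5915 and 5504 CPM in the sildenafil libraries. Treatment alone accounted for 0.850 of its variance there, and with it as a covariate mt-Nd6 was at 0.12 (adjusted p = 0.827), so their parts cannot be told apart. Of the 11 rows of the list, all tested in MC38, 2 were called lower and 0 higher, against 18.3% and 19.5% of all genes. These were Gm26917 and Terc (log2 fold change of -0.27, adjusted p = 0.0195). Gm42418 averaged 1135 CPM in controls and 785 in sildenafil libraries, without overlap and not called. Rn7sk went the other way, averaging 21399.6 CPM in controls and 24426 in sildenafil libraries. So did Rn7s1, a signal recognition particle RNA, at 9362 and 11944, each without overlap and not called. In the other rows of the list the groups overlapped. The share of mt-Nd6 in the mitochondrial mRNA counts was 0.181% ± 0.029 (SD, n = 3) in controls and 0.293% ± 0.0057 in sildenafil libraries, without overlap (exact two-sided permutation p = 0.1, the smallest that 3 against 3 allows). No source used here says whether the counting took strand into account. Reads of mt-Nd6 and of RNA from the opposite strand may not have been told apart. mt-Nd6 (chrM:13552-14070, minus strand) overlaps the end of mt-Nd5 on the opposite strand, and mt-Atp8 with mt-Atp6 and mt-Nd4l with mt-Nd4 share bases on one strand.

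The complex III mRNA of MC38 fell, and mRNAs of complexes IV and V passed the test only on joint counts with their copies. mt-Cytb stood at 364, 343 and 339.6 CPM in the control libraries and 280.2, 315 and 311 CPM in the sildenafil libraries. The groups did not overlap, with a log2 fold change of -0.21 (SE 0.045, adjusted p = 0.00461). mt-Co1 stood at 3169, 3101 and 3093 CPM in the control libraries and 3008, 3155 and 3238 CPM in the sildenafil libraries. The groups overlapped and the estimate was near 0, with a log2 fold change of 0.006 (SE 0.032, adjusted p = 0.905). The row of mt-Co3, a complex IV subunit, had a log2 fold change of -0.38 (SE 0.19, adjusted p = 0.215). With its copy added it stood at 2422, 2315 and 2301 CPM in the control libraries and 1897, 1936 and 1964 CPM in the sildenafil libraries. The groups then did not overlap, with a log2 fold change of -0.28 (SE 0.03, adjusted p = 2.91e-06). The proton-channel subunit of ATP synthase, mt-Atp6, had a log2 fold change of -0.29 (SE 0.26, adjusted p = 0.462) as deposited and a log2 fold change of -0.23 (SE 0.032, adjusted p = 4.34e-05) with the copy. mt-Co2, mt-Atp8, mt-Nd3 and mt-Nd4l were not called as deposited (-0.16, -0.13, -0.46 and -0.74), although mt-Atp8 was at -0.22 (adjusted p = 0.000747) without control library 3, and mt-Co3 and mt-Nd3 were at -0.57 (0.0209) and -0.68 (0.0116) without sildenafil library 3. With the copies added, mt-Co2, mt-Nd3 and mt-Nd4l were at -0.084, -0.21 and -0.14 (adjusted p = 0.0571, 0.110 and 0.264). None of them was called, and the joint groups of mt-Co2 did not overlap. As deposited, 6 of the 13 mRNAs had groups that did not overlap, against 48.9% of all genes tested in MC38.

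In LLC fitted alone, edgeR called 0 of the 13 mRNAs and 0 of the 2 rRNAs in either direction, against 27.3% of all genes tested. At an unadjusted p under 0.05 there were 2 mRNAs, both lower (mt-Atp8 and mt-Nd5), DESeq2 called 3 lower and limma-voom 4 lower, and neither tool called an rRNA or an mRNA higher. The median log2 fold change of the mRNAs was -0.12, beside -0.0062 over all genes. The LLC controls were not alike: for several members control libraries 1 and 2 were high and control library 3 lay among the sildenafil libraries. mt-Nd4 stood at 347, 215 and 131 CPM in the control libraries and 135, 99.0 and 98.9 CPM in the sildenafil libraries. Control library 3 fell between sildenafil libraries 1 and 2, and mt-Nd4 had a log2 fold change of -1.06 (SE 0.42, adjusted p = 0.140). mt-Nd5 stood at 258, 175 and 121 CPM in the control libraries and 118, 92.5 and 92.8 CPM in the sildenafil libraries. The groups did not overlap, by a narrow gap, with a log2 fold change of -0.87 (SE 0.32, adjusted p = 0.116). mt-Nd6 stood at 11.3, 12.2 and 21.2 CPM in the control libraries and 17.2, 21.8 and 19.4 CPM in the sildenafil libraries. Here control library 3 was close to the highest of the 6 and the others the lowest, and mt-Nd6 had a log2 fold change of 0.38 (SE 0.28, adjusted p = 0.356).

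Leaving out LLC control library 3 gave calls for mt-Nd4 (-1.34, adjusted p = 0.0469), mt-Nd5 (-1.10, 0.0448) and mt-Nd6 (0.74, 3.18e-05). Without control library 1, mt-Nd1 (0.24, adjusted p = 0.0497) and mt-Nd2 (-0.28, 0.0222) were called, and without control library 2 mt-Atp8 was (-0.60, 0.0157). The row of mt-Atp6 stood at 273, 157 and 95.2 CPM in the control libraries and 94.5, 62.1 and 121 CPM in the sildenafil libraries, with a log2 fold change of -0.91 (SE 0.51, adjusted p = 0.252). With its copy added it stood at 1005, 779 and 721 CPM in the control libraries and 586, 527 and 595 CPM in the sildenafil libraries. The groups then did not overlap, with a log2 fold change of -0.55 (SE 0.13, adjusted p = 0.0188), the only mRNA called in LLC on joint counts. mt-Nd2 and mt-Atp8 also had groups that did not overlap, with log2 fold changes of -0.52 and -0.46 and adjusted p = 0.123 and 0.106. This makes 3 of the 13 mRNAs without overlap as deposited, against 43.9% of all genes tested in LLC. As deposited, the estimates of mt-Co1, mt-Co2, mt-Co3, mt-Nd3 and mt-Cytb lay between -0.12 and 0.031, and those of mt-Nd1 and mt-Nd4l were 0.16 and -0.93. With the copies added, mt-Co2, mt-Co3, mt-Nd3 and mt-Nd4l were at -0.16, -0.18, -0.026 and -0.26, and none was called. The sign for mt-Co3 and mt-Nd3 and the size for mt-Nd4l thus depended on the division between gene and copy.

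Set in the order of the genes along the heavy strand, the 4T1 response ran from higher to lower. Over the 12 heavy-strand mRNAs, the rank correlation between the start position and the log2 fold change was -0.94 in 4T1, -0.74 in MC38 and -0.40 in LLC, and -0.85, -0.60 and -0.36 with the copies added. The points of a line share their 6 libraries and neighbouring genes share a transcript, so these values are a description without a test. With 1 library left out at a time, the 4T1 value lay between -0.94 and -0.88, that of MC38 between -0.72 and -0.48 and that of LLC between -0.49 and -0.36. In 4T1 the early gene mt-Nd1 and the late gene mt-Cytb made up 12.7% ± 0.33 and 12.9% ± 0.35 of the mitochondrial mRNA counts in controls (SD, n = 3) and 16.8% ± 0.84 and 9.39% ± 0.46 in sildenafil libraries, each without overlap (exact permutation p = 0.1).

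**Figure D3:**
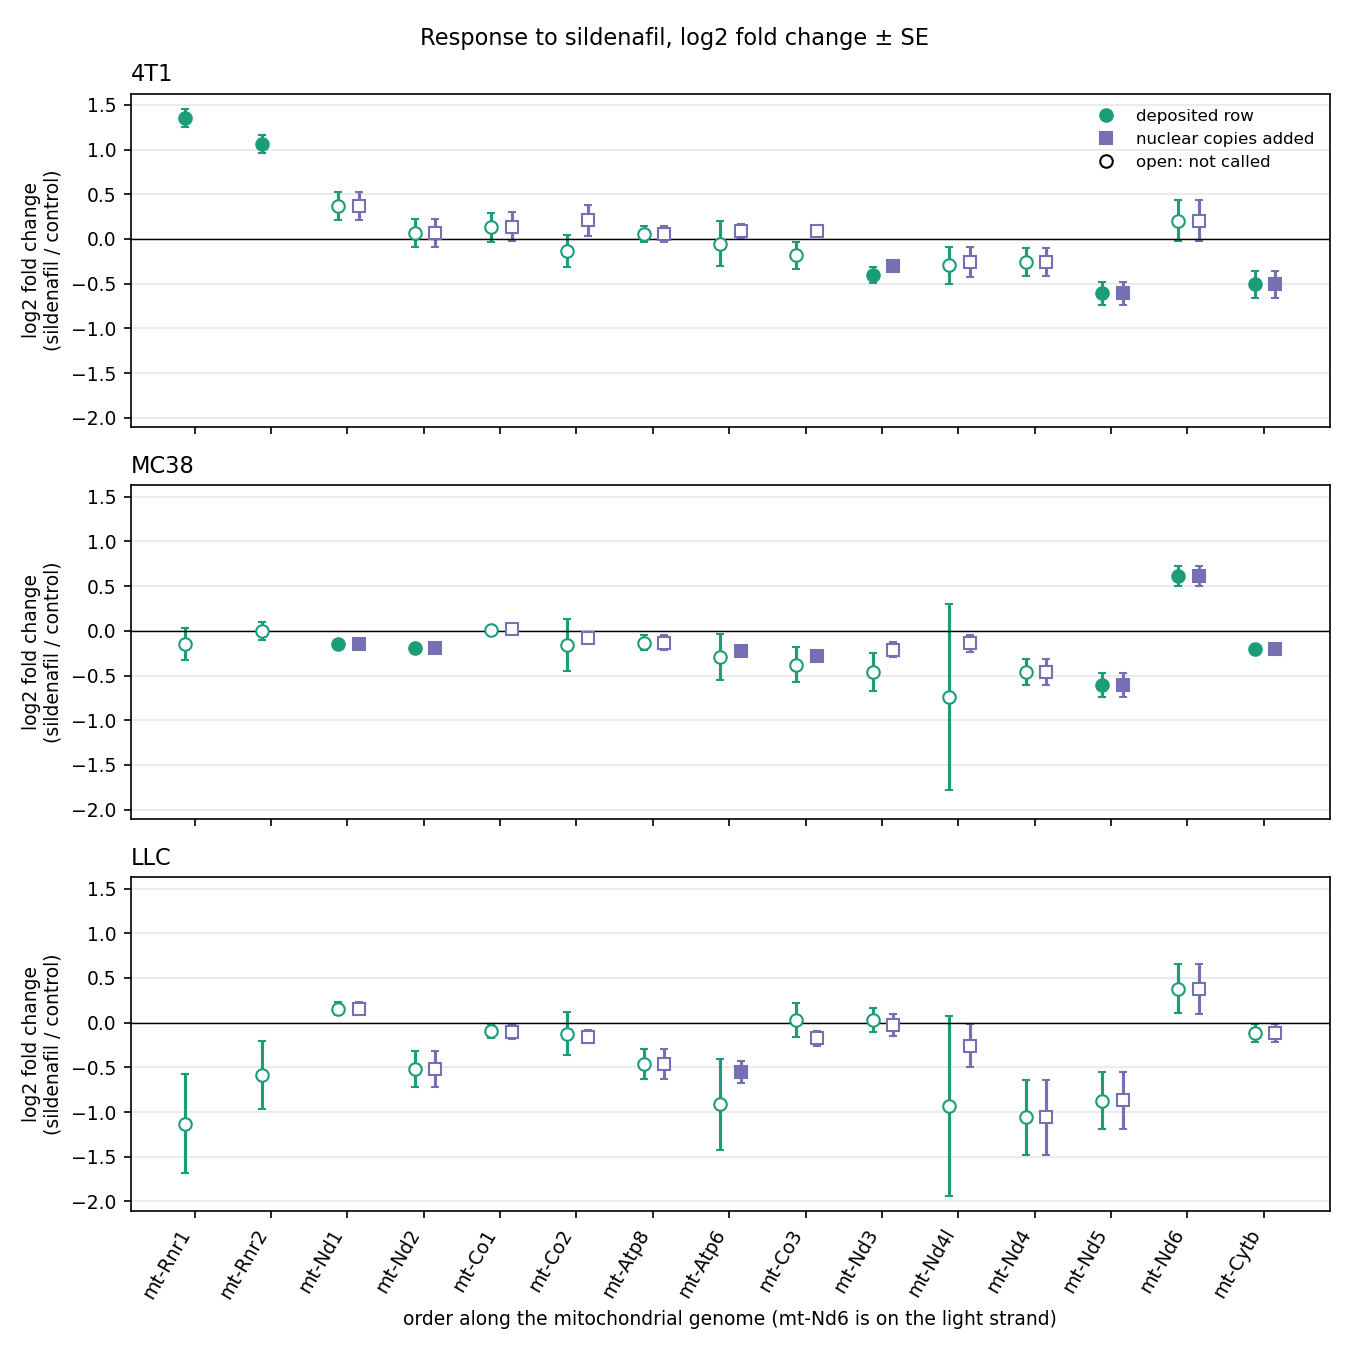
Log2 fold change of sildenafil over control with its standard error for the rRNAs and mRNAs in the order of their position, from the deposited rows (circles) and, for mRNAs, with the nuclear copies added (squares); filled symbols passed the test at an adjusted p under 0.05. In 4T1 the values step down from the rRNAs and mt-Nd1 to mt-Nd5 and mt-Cytb; in MC38 mt-Nd6 stands above 0 while mt-Nd5 and mt-Cytb lie below.

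The 2 mitochondrial rRNAs rose in 4T1 and passed the test in neither other line. mt-Rnr1 stood at 43.9, 34.5 and 34.6 CPM in the control libraries and 100.0, 99.4 and 89.99 CPM in the sildenafil libraries. mt-Rnr2 stood at 68.1, 56.9 and 50.8 CPM in the control libraries and 125, 120.3 and 122 CPM in the sildenafil libraries. In each, every sildenafil library exceeded every control, with a log2 fold change of 1.36 (SE 0.10, adjusted p = 2.07e-05) for mt-Rnr1 and a log2 fold change of 1.06 (SE 0.10, adjusted p = 1.27e-04) for mt-Rnr2, and both calls held without any 1 library. Counted per 100 mitochondrial mRNA counts, a ratio that needs no scaling to nuclear genes, rRNA was 1.65 ± 0.039 in 4T1 controls and 3.86 ± 0.029 in sildenafil libraries (SD, n = 3; exact permutation p = 0.1). The ratio of mt-Rnr2 to mt-Rnr1 was 1.56 ± 0.092 and 1.27 ± 0.072, also without overlap.

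Some rows of the list of RNAs without a poly(A) tail and rRNA-like rows also rose in 4T1. Gm26917 stood at 166, 162 and 161 CPM in the control libraries and 265, 239 and 275 CPM in the sildenafil libraries. Rn7sk, the 7SK small nuclear RNA, stood at 4.47, 3.01 and 2.93 CPM in the control libraries and 7.33, 5.66 and 7.52 CPM in the sildenafil libraries. Of the 7 rows of this list that were tested in 4T1, 3 were called higher (Gm26917, Rn7sk and Lars2, a protein-coding gene listed as rRNA-like) and 0 lower, against 33.5% and 33.3% of all genes. Rmrp and Rn7s2, both RNAs without a tail, had log2 fold changes of -0.76 and -0.13 and were not called, and the untested Terc averaged 0.140 CPM in controls and 0.0511 in sildenafil libraries, without overlap. The list's sum was 1503 to 1975 CPM in sildenafil libraries, above all controls. Its largest row there, Gm42418, averaged 854 CPM in controls and 1138 in sildenafil libraries. These groups did not overlap, and the row was not called (log2 fold change of 0.41, adjusted p = 0.132). With Gm26917 as a covariate neither rRNA was called (adjusted p = 0.341 and 0.631), but treatment alone accounted for 0.967 of the variance of that row in 4T1, so the 2 cannot be told apart.

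In MC38 and LLC, each fitted alone, edgeR called neither rRNA, with 0 at an unadjusted p under 0.05 and 0 by DESeq2 or limma-voom. With all 18 libraries in 1 edgeR fit, mt-Rnr1 was called lower in LLC (-1.11, adjusted p = 0.0276). In MC38, mt-Rnr2 stood at 2436, 2169.6 and 2395 CPM in the control libraries and 2051, 2458 and 2483 CPM in the sildenafil libraries. The groups overlapped widely, with a log2 fold change of -0.0018 (SE 0.10, adjusted p = 0.991), and mt-Rnr1 had a log2 fold change of -0.15 (SE 0.18, adjusted p = 0.596). In LLC, mt-Rnr2 stood at 6051, 4326 and 2298 CPM in the control libraries and 2837, 2530.5 and 3079 CPM in the sildenafil libraries. There mt-Rnr1 stood at 900.1, 589 and 227 CPM in the control libraries and 296, 229 and 258 CPM in the sildenafil libraries. Control libraries 1 and 2 stood above the other 4 in both, and control library 3 was the lowest of the 6. The log2 fold changes were -0.59 (SE 0.38, adjusted p = 0.314) for mt-Rnr2 and -1.13 (SE 0.55, adjusted p = 0.207) for mt-Rnr1, and -0.88 (0.0450) and -1.51 (0.0233) without control library 3. Gm26917 in LLC was also highest in control libraries 1 and 2, at 30047, 21244 and 9782 CPM in the control libraries. It stood at 13869, 7171 and 5835 CPM in the sildenafil libraries, so control library 3 was not its lowest. Its part in the result was not tested beyond the covariate fit, in which mt-Rnr2 and mt-Rnr1 were at 0.12 and 0.040 (adjusted p = 0.900 and 0.973). In some rows of the list control libraries 1 and 2 were not the highest: Rn7s1 rose in LLC by 0.31 on the log2 scale (adjusted p = 0.0318), and Rn7sk was at 0.37 and was not called. In Gm42418 they were the highest, at 1659, 1122 and 698 CPM in the control libraries and 949, 729 and 507 CPM in the sildenafil libraries (not called). AY036118 and Lars2 were at -1.43 and -0.65, each without overlap and not called. Of the 11 rows tested in LLC, 1 was called higher and 0 lower, against 15.1% and 12.2% of all genes. Per 100 mitochondrial mRNA counts, rRNA was 52.4 ± 3.3 and 54.7 ± 3.6 in MC38 and 47.4 ± 19.4 and 33.4 ± 3.7 in LLC (exact permutation p = 0.5 and 0.4).

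**Figure D4:**
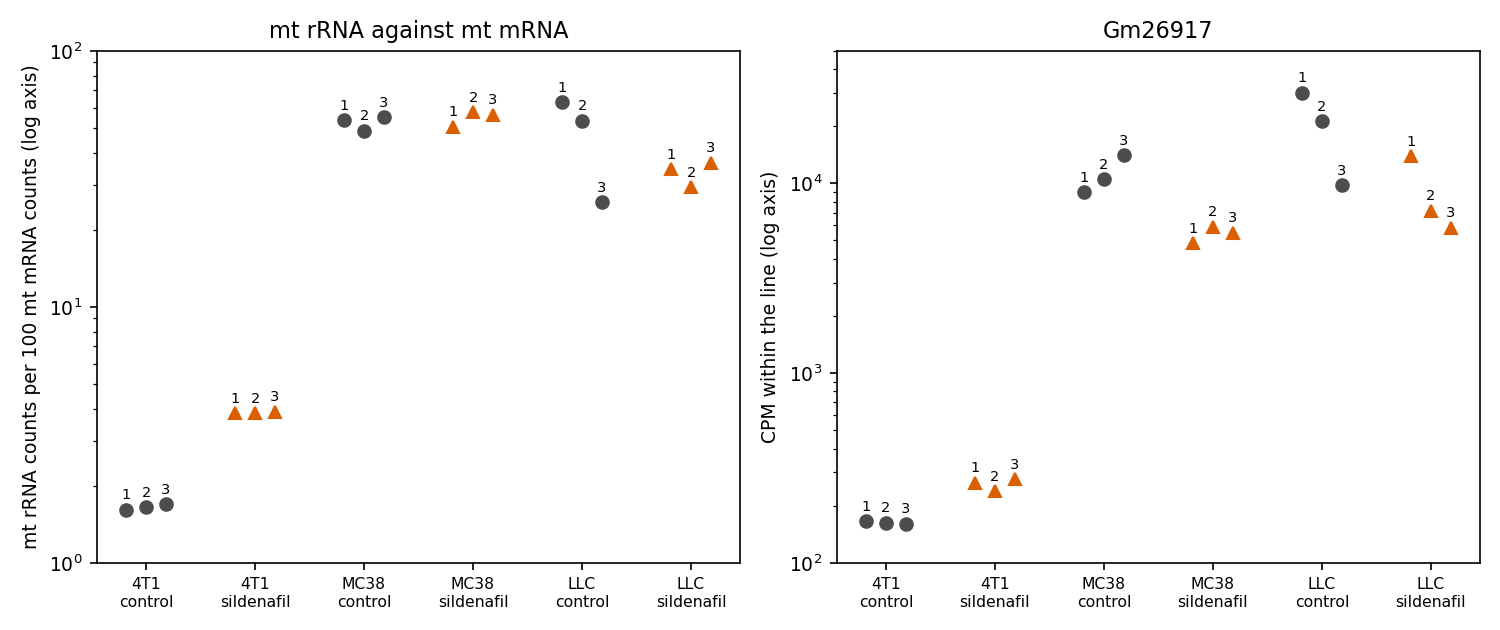
Left, mitochondrial rRNA counts per 100 mitochondrial mRNA counts in each library; right, CPM of Gm26917 within each line; both axes are logarithmic and the digits are replicate numbers. The 4T1 sildenafil libraries lie above their controls in both panels, and in LLC control libraries 1 and 2 are the highest of their line in both.

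Mitochondrial mRNAs as a whole had shares of the library that overlapped between control and sildenafil in each line. They made up 0.570% ± 0.099 of counts in 4T1 controls and 0.581% ± 0.018 in sildenafil libraries (SD, n = 3), 0.491% ± 0.011 and 0.471% ± 0.023 in MC38, and 0.998% ± 0.080 and 0.923% ± 0.015 in LLC (exact permutation p = 0.9, 0.3 and 0.2). The wide spread of the 4T1 controls came from control library 1, at 0.682% against 0.537% and 0.493%. With the copies added, the shares were 0.910% ± 0.025 and 0.850% ± 0.027 in MC38 and 1.63% ± 0.14 and 1.48% ± 0.017 in LLC, lower in each sildenafil library than in each control (exact permutation p = 0.1 in both), and 0.869% ± 0.14 and 0.937% ± 0.028 in 4T1, where the groups overlapped (p = 0.4).

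The response itself was compared between lines on all 18 libraries, as the log2 fold change in one line minus that in another. Line, medium and, for LLC, treatment time cannot be told apart in these contrasts, and contrasts that name the same line share its libraries. Between MC38 and 4T1, 1 of 13 mRNAs and both rRNAs differed, against 34.6% of all genes tested. The difference was -0.53 (SE 0.16, adjusted p = 0.0157) for mt-Nd1, -1.52 (SE 0.51, adjusted p = 0.0342) for mt-Rnr1 and -1.08 (SE 0.36, adjusted p = 0.0337) for mt-Rnr2. That of mt-Nd1 held without any 1 library; mt-Rnr1 missed the threshold without 8 of the 12 libraries taken singly and mt-Rnr2 without 10 (adjusted p up to 0.0765 and 0.0806). Between LLC and 4T1, 1 mRNA and both rRNAs differed, against 42.0% of all genes. The difference was -2.49 (SE 0.51, adjusted p = 0.00142) for mt-Rnr1 and -1.65 (SE 0.36, adjusted p = 0.00228) for mt-Rnr2, both kept without any 1 library, and -0.52 (SE 0.19, adjusted p = 0.0467) for mt-Atp8, lost without 9 of the 12 (adjusted p up to 0.130). With Gm26917 as a covariate none of these 6 differences was called. Between MC38 and 4T1 they were -0.20 for mt-Rnr1 (adjusted p = 0.860), -0.27 for mt-Rnr2 (0.700) and -0.54 for mt-Nd1 (0.110), and between LLC and 4T1 -0.86 for mt-Rnr1 (0.256), -0.66 for mt-Rnr2 (0.299) and -0.38 for mt-Atp8 (0.385). Gm26917 itself had log2 fold changes of 0.67 in 4T1, -1.05 in MC38 and -1.18 in LLC (not called). Treatment alone accounted for 0.967, 0.850 and 0.464 of its variance in these lines. Covariate and response therefore cannot be told apart in this fit. With the copies added and no covariate, mt-Co3 also differed between MC38 and 4T1 (-0.38, SE 0.094, adjusted p = 0.00279). Between LLC and 4T1, mt-Atp6 (-0.64, SE 0.15, adjusted p = 0.00234) and mt-Co3 (-0.27, SE 0.094, adjusted p = 0.0273) then differed too. Between LLC and MC38, edgeR called 0 of the 15 rows, against 22.3% of all genes, with 0 at an unadjusted p under 0.05 and 0 by DESeq2 or limma-voom. Without LLC control library 3, mt-Rnr1 (adjusted p = 0.00255) and mt-Rnr2 (0.00688) were called there, and without MC38 sildenafil library 3 mt-Nd3 was (0.0311). The rise of mt-Nd6 in MC38 was not called as different from its estimate in 4T1 (0.39, SE 0.45, adjusted p = 0.580) or LLC (-0.22, SE 0.29, adjusted p = 0.685).

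Lists of nuclear genes are set here beside all genes tested, of which 33.3% fell and 33.5% rose in 4T1, 18.3% and 19.5% in MC38, and 12.2% and 15.1% in LLC. Genes that transcribe and maintain mitochondrial DNA were mostly lower in 4T1. Of 16 such genes, 10 fell and 1 rose in 4T1 (median log2 fold change of -0.30), 4 fell and 0 rose in MC38 (-0.086) and 3 fell and 0 rose in LLC (-0.10). The MC38 and LLC counts of genes that fell are near the shares over all genes. At an unadjusted p under 0.05, 1 was higher in MC38 and 0 in LLC, and DESeq2 and limma-voom called 0 higher in both. The 1 that rose in 4T1 was lost without control library 3. The MC38 count was 2 without control library 1, and the LLC count 1 without sildenafil library 2 or 3. Polrmt, the mitochondrial RNA polymerase, averaged 28.5 ± 0.215 CPM in 4T1 controls and 24.0 ± 1.36 after sildenafil (SD, n = 3) and fell in each line: -0.25 (SE 0.048, adjusted p = 4.84e-04) in 4T1, -0.38 (SE 0.049, adjusted p = 2.14e-05) in MC38 and -0.25 (SE 0.054, adjusted p = 0.00787) in LLC, the last at an adjusted p of 0.0529 without sildenafil library 2. Tfam, which packs mitochondrial DNA and opens its promoters, fell in 4T1, -0.33 (SE 0.044, adjusted p = 1.58e-05), and had estimates of -0.036 in MC38 and 0.074 in LLC. Tefm, the elongation factor of mitochondrial transcription, was at -0.28 (SE 0.057, adjusted p = 7.58e-04) in 4T1, -0.11 in MC38 and -0.18 in LLC, and passed the test in 4T1. In 4T1 the replication nuclease Mgme1 (-0.80), the topoisomerase Top1mt (-0.69) and the helicase Twnk (-0.48) also fell. In MC38 the DNA polymerase gamma subunit Polg fell by 0.19 on the log2 scale. Top1mt was also called lower in MC38 and LLC, and Twnk in LLC. The MC38 call of Top1mt was lost without control library 1 (adjusted p = 0.0659). Its LLC call was lost without control library 2 or sildenafil library 3 (0.0510 and 0.0572). That of Twnk was lost without sildenafil library 2 or 3 (0.0586 and 0.0511).

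Of 35 genes for processing, modification and turnover of mitochondrial RNA, 28 fell and 3 rose in 4T1 (median -0.38), against 33.3% and 33.5% of all genes. In MC38 16 fell and 2 rose (-0.086), against 18.3% and 19.5% of all genes, and in LLC 8 fell and 0 rose (-0.080), against 12.2% and 15.1% (2 higher at an unadjusted p under 0.05, 0 by DESeq2 and limma-voom). The LLC count of 8 was 4 without sildenafil library 2, and without control library 3 another 4 genes were called higher. In MC38 0 rose without control library 3 or sildenafil library 1 or 2, and DESeq2 called 0 higher. Lrpprc, which stabilises mitochondrial mRNAs, stood at 209, 214 and 216 CPM in the control libraries and 138, 133 and 134 CPM in the sildenafil libraries of 4T1. Its groups were far apart there, with a log2 fold change of -0.66 (SE 0.029, adjusted p = 3.90e-10), and it fell also in MC38, -0.20 (SE 0.029, adjusted p = 6.36e-05), and LLC, -0.28 (SE 0.049, adjusted p = 0.00314). Its partner Slirp was at -0.21 (SE 0.055, adjusted p = 0.00457) in 4T1, -0.15 (SE 0.046, adjusted p = 0.0198) in MC38 and 0.19 (not called) in LLC; the MC38 call was lost without control library 1 (adjusted p = 0.120) or sildenafil library 1 or 2 (0.0525 and 0.0549), and LLC was called higher without control library 3 (0.32, adjusted p = 0.000244). Mtpap, the poly(A) polymerase, was at -0.40 (SE 0.044, adjusted p = 2.45e-06) in 4T1, -0.086 (not called) in MC38 and -0.19 (SE 0.048, adjusted p = 0.0165) in LLC, the last lost without control library 1 or sildenafil library 2 or 3 (adjusted p = 0.0590 to 0.0870). Pnpt1, the exonuclease of the mitochondrial degradosome, fell by 0.28 in 4T1 and 0.29 in MC38 on the log2 scale. Elac2, which cuts the 3′ ends of tRNAs, fell in 4T1 (-0.85, SE 0.041, adjusted p = 9.84e-10) and MC38 (-0.32, SE 0.031, adjusted p = 1.35e-06), and Pde12, which removes poly(A) tails, fell by 0.72 on the log2 scale in 4T1. Pde12 was also called lower in LLC, a call lost without sildenafil library 2 or 3 (adjusted p = 0.0517 and 0.0543).

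Among 8 regulators of mitochondrial biogenesis, 5 of 7 tested fell in 4T1, 3 of 7 in MC38 and 1 of 8 in LLC, where 1 rose, against 33.3%, 18.3% and 12.2% of all genes falling, so the LLC count is at the share over all genes. Without sildenafil library 1 the 4T1 count was 3, and in LLC the lower count was 0 without sildenafil library 2 and 3 without control library 3. Pprc1, a PGC-1 related coactivator, fell in 4T1 (-1.13, SE 0.035, adjusted p = 1.53e-11) and MC38 (-0.57, SE 0.10, adjusted p = 0.00574). Ppargc1a, which encodes PGC-1α, was tested only in LLC, where it rose from 1.44 ± 0.121 to 2.38 ± 0.0966 CPM (SD, n = 3; log2 fold change of 0.72, SE 0.16, adjusted p = 0.00805); in the other lines its group means lay between 0.0221 and 0.0668 CPM. Of 80 mitochondrial ribosomal proteins, 55 fell and 5 rose in 4T1 (median -0.30), 39 fell and 2 rose in MC38 (-0.11), and 10 fell and 6 rose in LLC (0.00098). Against 33.3%, 18.3% and 12.2% of all genes falling, the LLC count again is near that share. Without 1 library the LLC counts ran from 4 to 11 lower and from 1 to 21 higher, the 21 without control library 3 and the 1 without sildenafil library 3, and 9 rose in 4T1 without its sildenafil library 3. Mrps22 fell by 0.79 on the log2 scale in 4T1, and Mrpl19 fell in each line, by 0.47, 0.38 and 0.24. Mrps22 was also called lower in MC38, a call lost without sildenafil library 2 (adjusted p = 0.0530).

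Nuclear-encoded subunits of the same respiratory complexes gave counts in both directions. Of 84, 20 of 80 tested rose and 32 fell in 4T1 (median -0.040), 5 of 79 rose and 28 fell in MC38 (-0.049), and 12 of 80 rose and 2 fell in LLC (0.094). Of all genes, 33.5% rose and 33.3% fell in 4T1, 19.5% and 18.3% in MC38, and 15.1% and 12.2% in LLC, so the LLC count that rose is at the share over all genes. In LLC the number that rose was 45 without control library 3 and 2 without sildenafil library 2 or 3; the number that fell ran from 0 to 3. In MC38 the number that fell was 18 without control library 1, and the number that rose as low as 2. Uqcrh, the hinge protein of complex III, stood at 30.2, 28.7 and 29.6 CPM in the control libraries and 73.3, 70.1 and 68.2 CPM in the sildenafil libraries of 4T1. It rose there, 1.26 (SE 0.04, adjusted p = 1.73e-11), while mt-Cytb of the same complex fell. Uqcrh was also called higher in LLC, a call lost without control library 2 or any 1 sildenafil library (adjusted p = 0.0530 to 0.0851). Cox7a2l, which joins complexes III and IV, rose in each line (0.35, 0.14 and 0.22), as did the complex I subunit Ndufv3 (0.61, 0.36 and 0.37). Ndufs1, the largest complex I subunit, fell in 4T1 (-0.39, SE 0.03, adjusted p = 7.72e-08) and MC38 (-0.12, SE 0.031, adjusted p = 0.00617), and Cyc1 of complex III fell by 0.47 and 0.29 on the log2 scale in these lines. Ndufs1 was also called lower in LLC, a call lost without control library 1 or 2 or any 1 sildenafil library (adjusted p = 0.0672 to 0.130). The mRNA of Atp5a1, the catalytic-head subunit alpha of ATP synthase, fell by 0.31 in 4T1 and 0.22 in MC38 on the log2 scale.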

How the data were processed

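RNA of the 3 lines was sequenced from oligo-dT captured, strand-marked libraries, per the labels' protocols. The authors deposited RSEM expected counts per gene for 18 libraries (26348659 to 61600675 counts, which set the precision of each value); the submitters' processing notes name the build mm10 and list STAR 2.7.0f, RSEM 1.3.1, cutadapt 1.18 and bcl2fastq 2.17. No source used here gives the annotation or the strand setting. All 55450 rows matched GENCODE M21 by identifier.

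Expected counts were rounded, since 4.30% to 6.91% of values per library were not whole. Each line was fitted alone with edgeR 4.0.16 (filterByExpr, TMM, robust quasi-likelihood test, Benjamini-Hochberg adjustment over all genes tested, threshold 0.05) in R 4.3.3; responses were compared between lines in 1 fit of 18 libraries. Shares were compared with two-sided exact permutation tests (scipy 1.17.1). Nuclear copies were found with blastn 2.17.0 in GENCODE M21 transcripts and added to their gene in an alternative. The scripts were tested on simulated data. Alternatives included DESeq2 1.42.0, limma-voom (limma 3.58.1), other scalings and filters, a Gm26917 covariate, the replicate number as a block and leaving out each library.

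The members and lists were chosen with earlier results of these data known. Named were all mitochondrial mRNAs and rRNAs, a fixed set of 8 nuclear genes, and per list and line the 3 called genes with the smallest adjusted p.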

Additional observations from a re-analysis of the deposited data

Results flagged for a closer look

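The response to sildenafil differed between lines by the interaction test (edgeR, 18 libraries, rows as deposited) for 6 results, all contrasts with 4T1, whose libraries they share. Against 4T1, the MC38 response differed by -0.53 on the log2 scale for mt-Nd1, -1.52 for mt-Rnr1 and -1.08 for mt-Rnr2. The LLC response differed from that of 4T1 by -0.52 for mt-Atp8, -2.49 for mt-Rnr1 and -1.65 for mt-Rnr2. Line and medium, and for LLC also treatment time, cannot be told apart in these differences.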

How the results depend on the processing

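The number of mitochondrial mRNAs called depended on the fit. In 4T1 the number called higher (0) was 1 with DESeq2, with limma-voom and with all 18 libraries in 1 fit, and 0 to 2 without 1 library; the number called lower (3) was 0 with the Gm26917 covariate and 0 to 4 without 1 library. The 4T1 median (-0.13) was -0.39 with the covariate and 0.066 with the nuclear copies added, and -0.26 to -0.0023 without 1 library. In MC38 the number lower (4) was 7 with limma-voom, 0 with the covariate and 0 with all 18 libraries in 1 fit, and 3 to 6 without 1 library; the 1 higher was 0 with the covariate, and the median was -0.32 to -0.16 without 1 library. In LLC the number lower (0) was 3 with DESeq2, 4 with limma-voom, 1 with the copies and 4 with all 18 libraries, and 0 to 2 without 1 library; the number higher was 0 to 1 and the median -0.29 to -0.051. The cause was not tested.

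Of the differences between lines, that of MC38 and 4T1 (1 mRNA) gave 8 with no filter and 2 with the copies, and 1 to 2 without 1 library. LLC and MC38 (0) gave 8 with no filter, 1 with the 2 lines alone, and 0 to 1 without 1 library. LLC and 4T1 (1) gave 3 with DESeq2, 2 with limma-voom, 2 with library totals alone, 11 with no filter, 2 with the 5 CPM filter, 0 with the covariate, 2 with protein-coding genes alone, 3 with the copies and 0 with the 2 lines alone, and 0 to 4 without 1 library.

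Signs turned for uncalled shares: the 4T1 mRNA share difference was -0.0061 and -0.028 percentage points without control library 2 or 3 (range -0.028 to 0.066), and the MC38 rRNA share difference -0.0099, -0.0045 and -0.0088 without control library 2 or sildenafil library 2 or 3 (range -0.0099 to 0.017). With the covariate, 4T1 log2 fold changes were 0.030 for Polrmt, 0.027 for Tefm, 0.31 for Slirp and 0.33 for Pnpt1. They were 0.059 for Gabpb1, 0.15 for Mrpl20, 0.29 for Dap3 and 0.0044 for Cyc1, and that of Cox7a2l in MC38 was -0.041. None of these was called (edgeR adjusted p = 0.361 to 0.993). Treatment alone accounted for 0.967 of the covariate's variance in 4T1 and 0.850 in MC38, so the 2 cannot be told apart. The mt-Nd5 difference between MC38 and 4T1 was 0.84 (adjusted p = 0.0320) with the covariate. The mt-Co3 difference between LLC and 4T1 was -0.27 (adjusted p = 0.0273) with the copies.

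In no line did every same-numbered pair of control and sildenafil libraries deviate together above a correlation of 0.1. The 4T1 correlations lay between -0.072 and 0.049, those of MC38 between 0.010 and 0.24 and those of LLC between -0.051 and 0.14. With 3 libraries per group, these values cannot decide whether the numbers pair the libraries. With the replicate number as a block, 1 mRNA was higher and 5 lower in 4T1, and 1 lower in LLC. In MC38 the block lost the call of mt-Cytb (-0.21, adjusted p = 0.0984) and gave one for mt-Co2 (-0.16, 0.00146). Under the block, the rRNA differences between MC38 and 4T1 were no longer called (mt-Rnr1 -1.53, adjusted p = 0.0587; mt-Rnr2 -1.09, 0.0916).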
